A study of Mus musculus with 9 samples.

Results

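The 3 control libraries of this series held the transcriptome of the normal mouse 8-cell embryo, and every library in that group was taken, 3 of 9 in all (1 group of 3). Zygotes of ICR mice, made by in vitro fertilisation with eggs of superovulated females, received a nontargeting siRNA by cytoplasmic microinjection and were cultured to the 8-cell stage. The libraries that are not described here came from embryos given siRNA against *Mfn1* (MFN1-KD) or against the genes of histone H3.3 (H3.3-KD), 3 of each, and they enter only once, for their spread. The libraries were made from pooled embryos, 5 to 10 per group by the labels and 10 per group by the methods, and neither says whether that is the number in each library. The blastomeres of several embryos were thus averaged, and the embryos had been injected, which limits "normal" to embryos that received a siRNA without a target. The study calls the libraries biological replicates, but neither the labels nor the methods say whether the pools came from separate mice or days, so how much of the spread is technical is unknown. RNA was amplified with an oligo-dT primer by Smart-Seq2, a method for very small amounts of polyadenylated RNA.

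At the 8-cell stage the mouse embryo has used up most of the mRNA that the egg stored and runs on its own genome, which was switched on in an early and then a broader wave of transcription. The blastomeres are about to flatten against each other (compaction), gain an outer and an inner face (polarity) and divide into the outer trophectoderm and the inner cell mass. They are known for burning pyruvate and lactate rather than glucose, for mitochondria inherited from the egg, and for a chromatin in which the replacement histone H3.3 is abundant. Levels are given in FPKM (fragments divided by transcript length and by the library's total), a measure per length, so that genes can be set beside each other. In bulk samples fewer cells with a transcript and less of it in each cell cannot be told apart.

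A few values of the whole tables bear on all that follows. The tables listed 55335 entries, and the FPKM of a library summed to 1113563, 1292513 and 1331977 in controls 1, 2 and 3, with 22507, 21643 and 21770 entries above 0. The values hold no read totals, so the depth of the libraries is unknown. Control 1 stood somewhat apart from the other libraries. It was the lowest of the 3 for 55.4% of the 1118 protein-coding genes at 100 FPKM or more and the highest for 60.4% of the 3409 at 10 to 100 FPKM. Its 100 highest entries held 44.2% of all FPKM, against 48.5% and 49.5% in controls 2 and 3. Pearson's r of log2(FPKM + 1), across 12031 entries with a mean of at least 1 FPKM, was 0.939 for controls 1 and 2, 0.945 for controls 1 and 3 and 0.954 for controls 2 and 3, and entries are not independent replicates.

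The RNA of the 8-cell embryo was concentrated in few genes. Of 21669 protein-coding genes, 1118 (5.16%) had a mean of 100 FPKM or more and carried 86.0% of the summed coding FPKM, while 3409 were at 10 to 100 FPKM, 4753 at 1 to 10, 7243 above 0 but under 1, and 5146 (23.7%) were listed at 0 in every library. The 110 highest genes held 50% of the coding FPKM and the 1610 highest held 90%. The class of a gene was the same in every library for 88.0% of the genes at 100 FPKM or more, for 80.9% at 10 to 100, for 69.9% at 1 to 10 and for 41.8% of those above 0 but under 1. At 1 FPKM or more in every library stood 8336 genes (38.5%), and the median protein-coding gene had 0.457 FPKM. The 38.5% is the share to set beside the counts of family members at that level that follow.

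**Figure D1:**
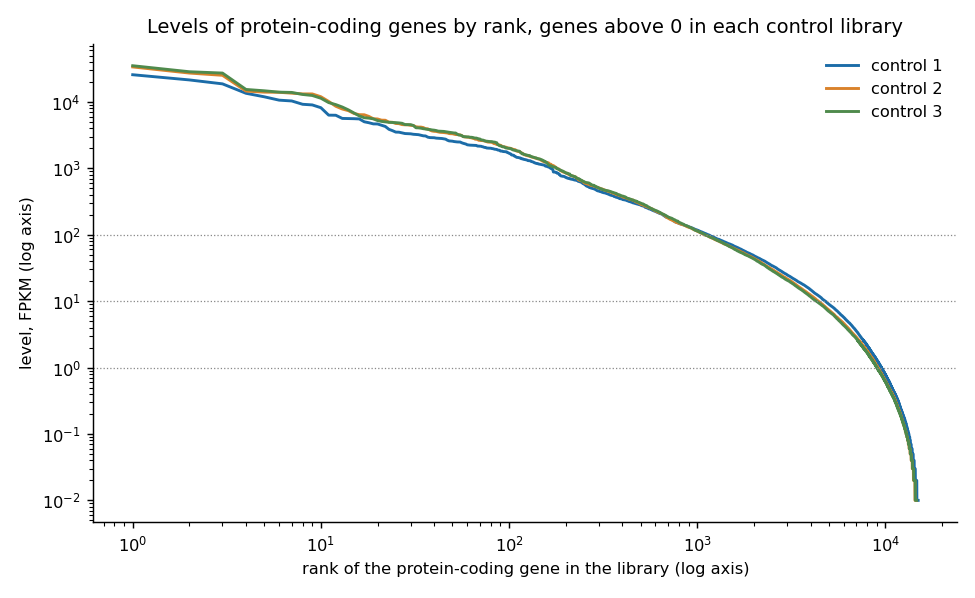
FPKM of protein-coding genes against their rank in each control library, both on log axes, with 1 line per library and dotted lines at 1, 10 and 100 FPKM. The 3 lines lie close together, with control 1 below controls 2 and 3 among the highest genes and slightly above them around 10 FPKM.

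The level classes differed in the base composition of their promoters. RefSeq promoters on GRCm38.p6 (250 bases before the start and 50 after it, the first listed start of a gene) were matched by symbol to 16482 of the 21669 protein-coding genes. CG pairs are rare in most of the mouse genome and common in the promoters of genes that many tissues read. The median promoter held 22 CG pairs for genes at 100 FPKM or more, 22 at 10 to 100, 20 at 1 to 10, 11 above 0 but under 1 and 3 for genes listed at 0. A ratio of observed to expected CG over 0.6 was found in 84.4%, 80.7%, 70.0%, 40.2% and 11.6% of these classes and in 49.8% of all promoters. The letters TATAAA, searched on both strands of the whole window, stood in 8.52%, 6.0%, 7.09%, 12.4% and 25.8% of them and in 12.9% of all. Only on the gene's strand and 45 to 16 bases before the start, the shares were 1.23%, 0.58%, 1.59%, 2.74% and 6.60%. Of all promoters 2.89% held the letters there. These shares are a description over genes with no test, and the 930 olfactory receptors matched had a median of 1 CG pair. The next 4 promoters, with every CG pair in capitals, show windows rich and poor in CG. *H3f3b* and *Ccnb1* were abundant, the zona gene *Zp3* was in the class of 10 to 100 FPKM, and the sperm gene *Prm2* was at 1.78, 1.39 and 1.39 FPKM.

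H3f3b, chr11:116024455-116024754, minus strand: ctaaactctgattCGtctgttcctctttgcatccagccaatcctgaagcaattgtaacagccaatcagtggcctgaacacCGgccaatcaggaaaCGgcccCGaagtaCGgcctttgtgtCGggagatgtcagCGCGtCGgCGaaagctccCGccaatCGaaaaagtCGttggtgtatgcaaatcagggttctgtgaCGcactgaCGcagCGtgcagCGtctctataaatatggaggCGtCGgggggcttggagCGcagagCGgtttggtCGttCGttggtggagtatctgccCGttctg
Ccnb1, chr13:100786437-100786736, minus strand: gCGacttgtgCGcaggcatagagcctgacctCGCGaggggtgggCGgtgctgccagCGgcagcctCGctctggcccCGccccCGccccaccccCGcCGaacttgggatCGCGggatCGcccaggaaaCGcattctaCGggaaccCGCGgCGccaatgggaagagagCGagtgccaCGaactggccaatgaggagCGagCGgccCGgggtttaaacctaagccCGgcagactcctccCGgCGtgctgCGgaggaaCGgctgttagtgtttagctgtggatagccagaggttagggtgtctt
Zp3, chr5:135979855-135980154, plus strand: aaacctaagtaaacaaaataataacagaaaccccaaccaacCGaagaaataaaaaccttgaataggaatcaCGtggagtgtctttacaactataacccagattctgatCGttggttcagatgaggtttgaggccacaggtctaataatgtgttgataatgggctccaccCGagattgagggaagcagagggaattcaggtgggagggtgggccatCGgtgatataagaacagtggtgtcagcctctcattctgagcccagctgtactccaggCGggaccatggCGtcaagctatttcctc
Prm2, chr16:10792056-10792355, minus strand: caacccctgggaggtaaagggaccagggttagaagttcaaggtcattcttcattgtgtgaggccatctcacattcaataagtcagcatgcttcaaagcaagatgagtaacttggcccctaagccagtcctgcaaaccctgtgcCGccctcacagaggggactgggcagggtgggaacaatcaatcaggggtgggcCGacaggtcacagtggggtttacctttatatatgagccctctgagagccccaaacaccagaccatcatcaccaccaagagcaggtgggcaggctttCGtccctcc

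The first 2 held 24 and 29 CG pairs, and the last 2 held 7 and 3, under the medians of their own level classes (22 at 10 to 100 FPKM and 20 at 1 to 10), so they show the range of CG content and not the difference between classes. *H3f3b* encodes the replacement histone H3.3 and *Ccnb1* encodes cyclin B1, which drives entry into mitosis, and both are described with their relatives further on.

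Translation and respiration took the top of the list. Among the 30 highest protein-coding genes with a transcript of at least 300 bases, 13 encoded cytoplasmic ribosomal proteins, 9 were genes of the mitochondrial DNA, and 8 were others, and control 1 was the lowest library for 27 of them. *mt-Atp6*, a subunit of the mitochondrial ATP synthase, was the highest at 25701, 33665 and 35131 FPKM in controls 1, 2 and 3. *mt-Cytb*, the cytochrome b of complex III, followed at 21464, 27228 and 28510.3 FPKM. All 13 proteins of the mitochondrial DNA were above 500 FPKM in every library, from *mt-Nd4l* with a mean of 779 up to *mt-Atp6* with a mean of 31499 FPKM. They made up 10.4% of all FPKM, and their sum was 111046, 137336 and 140030. This left out 6 near-identical copies on chromosome 1, described below, which held another 4.09% of all FPKM. *mt-Nd1* was the steadiest of them, at 13500.5, 13209 and 12967 FPKM (coefficient of variation, CV, that is SD over mean, 2.02%, n = 3), and *mt-Nd3* the least steady, at 3322, 6435 and 5248 FPKM (CV 31.4%). *mt-Nd3* and *mt-Nd4l* have copies listed at higher means than their own, 10355 and 6932 FPKM, so the rank and spread of both are uncertain.

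The 8 others in the 30 highest were genes of diverse roles. *Dppa5a* and *Dppa3*, genes of pluripotent and early embryonic cells, had almost equal levels of 10349.8, 13971 and 14052 FPKM and 10642, 13542 and 13913 FPKM. *Dppa3* (chromosome 6, 122626410 to 122630272 on GRCm38) encodes Stella, which guards the maternal genome against loss of DNA methylation, and *Dppa5a* (chromosome 9, 78367052 to 78368177) an RNA-binding protein. In both, control 1 was the lowest library. *Eloc*, which encodes elongin C of ubiquitin ligases, stood at 9222, 14052 and 14727 FPKM and *Map1lc3b*, the autophagosome protein LC3B, at 9021, 11984 and 12515 FPKM. *Crxos*, a homeobox gene of the early embryo, was at 8188, 13222 and 11369 FPKM. *Npm1*, the nucleolar protein nucleophosmin, was at 3869.7, 4445 and 5094, the metallothionein *Mt1* at 3147, 5584 and 4552 and *Ppia*, cyclophilin A, at 3505, 4526 and 4566 FPKM. The lowest of the 30 still had a mean of 4171 FPKM, and the 3 libraries never differed by more than 2-fold within any of these 8.

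All 47 listed proteins of the large and all 32 of the small cytoplasmic ribosomal subunit were at 100 FPKM or more, and together they made up 9.31% and 8.52% of all FPKM. The medians were 2384 FPKM for the large and 2870 FPKM for the small subunit, against 0.457 over all protein-coding genes. *Rpl41* led the large subunit with 11958, 14569 and 15429 FPKM and *Rps29* the small subunit with 6328, 10182 and 9779 FPKM. The low end was *Rpl29* with 95.9, 125 and 111 FPKM and *Rps2* with 337, 342 and 354 FPKM. Both genes at the low end have many pseudogene copies in the genome, 122 for *Rpl29* and 128 for *Rps2*, and the copies summed to 1274 and 3016 FPKM, so the share of each gene is uncertain. The subunit sums were 98800, 124036 and 124992 FPKM for the large subunit and 87997, 114443 and 116113 FPKM for the small one, so that control 1 was again the lowest. Control 1 also had the lowest total over all entries, 1113563 FPKM against 1292513 and 1331977 in controls 2 and 3. The median CV over the members was 12.8% in each subunit, and only *Rpl26* (880.4, 1991 and 1056 FPKM) differed by more than 2-fold. Its 26 pseudogene copies summed to 2350, 1771 and 2810 FPKM and were lowest in control 2, where the gene was highest, so its own spread is uncertain too.

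mRNAs of ribosomal proteins are known to start with a run of C and T bases by which their translation is controlled. A run of at least 8 such bases that touched the 2 bases before or the 6 bases after the RefSeq start was present in 19 of the 58 ribosomal protein promoters that were matched (32.8%), in 7.98% of all 16482 promoters, and in 6.95% of the promoters of the other genes at 100 FPKM or more. The windows below hold 30 bases before and 30 after the start, with the run in capitals, for 6 of the 19 genes, whose means ranged from 638 to 7280 FPKM, and they show where the run sits.

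Rps27, chr3:90213619-90213678, minus strand: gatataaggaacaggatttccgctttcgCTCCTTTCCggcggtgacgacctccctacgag
Rpl38, chr11:114668550-114668609, plus strand: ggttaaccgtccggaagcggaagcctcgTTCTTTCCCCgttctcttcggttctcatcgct
Fau, chr19:6057917-6057976, plus strand: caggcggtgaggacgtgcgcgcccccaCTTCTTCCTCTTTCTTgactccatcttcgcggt
Rpl15, chr14:18270957-18271016, minus strand: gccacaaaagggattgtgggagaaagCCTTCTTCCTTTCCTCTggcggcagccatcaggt
Rpl7a, chr2:26910777-26910836, plus strand: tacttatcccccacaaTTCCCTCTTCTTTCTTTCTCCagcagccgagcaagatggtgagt
Rpl27a, chr7:109519165-109519224, plus strand: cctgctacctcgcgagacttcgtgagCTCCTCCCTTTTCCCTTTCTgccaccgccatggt

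A promoter without the run in this window may have an annotated start that differs from the start used in the embryo, and nothing was drawn from its absence.

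Other parts of the protein machinery were complete as well. The 14 core subunits of the proteasome, which degrades proteins marked with ubiquitin, all stood at 100 FPKM or more, from *Psmb5* (301, 332 and 296 FPKM) to *Psma6* (1161, 1389 and 1369 FPKM), with a median CV of 7.65%. All 8 subunits of the TCP1 ring, the chaperonin that folds actin and tubulin, lay between means of 257 and 423 FPKM, and *Cct8* was the highest with 428, 418 and 423 FPKM. The subunits of either particle were thus all abundant, with none standing far below the rest. Of the 55 translation initiation factors with an Eif symbol 52 were at 1 FPKM or more in every library (94.5%), with *Eif5* at 1584, 1942 and 2121 and *Eif1* at 1989, 1605 and 1556 FPKM. The 35 aminoacyl-tRNA synthetases, which load tRNAs, were lower, with a median of 14.7 FPKM and 29 members at 1 FPKM or more in every library. Of 37 ubiquitin-conjugating enzymes 30 reached that level, led by *Ube2l3* (1158, 1515 and 1619.6 FPKM) and *Ube2d3* (544, 664 and 777 FPKM). *Ube2c*, the partner of the mitotic ubiquitin ligase, was at 514, 552 and 523 FPKM.

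**Figure D2:**
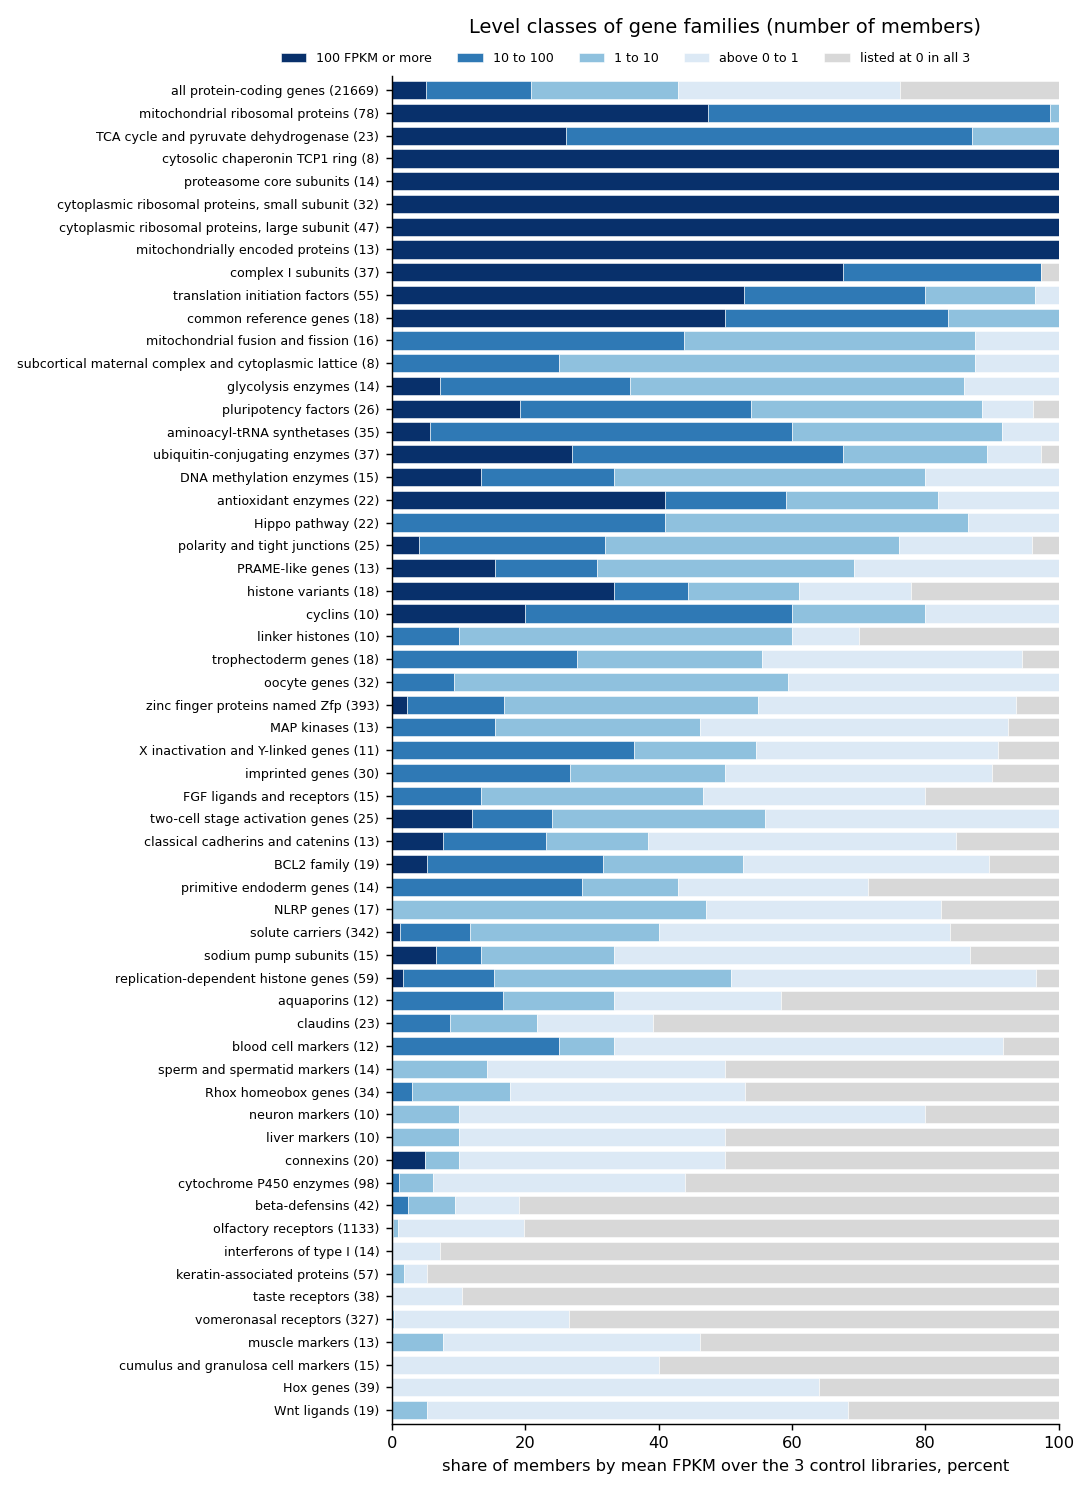
Share of the members of each family in 5 classes of mean FPKM over the 3 control libraries, as stacked bars from 0 to 100%, with the number of members in brackets, families ordered by the share at 1 FPKM or more in every library and all 21669 protein-coding genes on top. The cytoplasmic ribosomal, proteasome, TCP1 ring and mitochondrially encoded families lie wholly in the class of 100 FPKM or more, and Hox genes, taste receptors and cumulus markers wholly under 1 FPKM.

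The nuclear part of the mitochondrion was likewise present. All 78 mitochondrial ribosomal proteins were at 1 FPKM or more in every library, with a median of 93.8 FPKM, and 36 of 37 genes with an Nduf symbol, most of which encode subunits of complex I, were too, with a median of 149 FPKM. The exception was *Ndufa4l2*, listed at 0 in all 3. The 23 genes of the tricarboxylic acid cycle, pyruvate dehydrogenase and pyruvate import all reached 1 FPKM in every library. Within this list the 2 subunits of the mitochondrial pyruvate carrier were the highest genes, *Mpc1* at 1183, 1182 and 1297 FPKM and *Mpc2* at 729, 873 and 921 FPKM. *Pdhb*, a subunit of pyruvate dehydrogenase, followed at 334, 328 and 334 FPKM. *Dlat*, another subunit of that enzyme, was at the bottom with 4.42, 3.08 and 2.22 FPKM, and both belong to the same complex.

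Enzymes of glycolysis were low beside it. Of 14 listed genes 12 were at 1 FPKM or more in every library, but the median was 5.33 FPKM, against 33.8 FPKM for the pyruvate and tricarboxylic acid list. *Pgam1*, phosphoglycerate mutase, was the single enzyme over 100 FPKM by its mean, at 119, 115 and 97.7 FPKM. *Hk2*, hexokinase 2, was at 29.5, 41.98 and 29.9, *Pgk1*, phosphoglycerate kinase, at 14.5, 13.02 and 8.67 and *Pkm*, pyruvate kinase, at 9.40, 4.94 and 4.33 FPKM. *Gapdh*, a gene that many studies use as a reference, was at 4.61, 1.85 and 5.49 FPKM in controls 1, 2 and 3. Its 25 pseudogene copies summed to only 0, 0.40 and 0.68 FPKM. Phosphofructokinase, which commits glucose to glycolysis, was low in each of its forms, with *Pfkp* at 1.19, 1.87 and 1.29 FPKM, *Pfkl* at 0.81, 0.67 and 0.75 FPKM and *Pfkm* at 0.27, 0.35 and 0.17 FPKM. The symbol *Aldoa* was carried by 2 entries and was not analysed here. The glucose transporter *Slc2a3* (4.34, 4.98 and 4.08 FPKM) exceeded *Slc2a1* (1.80, 0.71 and 0.70 FPKM) in every library.

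Among 16 genes of mitochondrial fusion and fission 14 were at 1 FPKM or more in every library, with a median of 4.89 FPKM. *Mfn1*, the mitofusin that the study silenced in other embryos, was at 51.6, 22.6 and 23.8 FPKM in controls 1, 2 and 3, more than 2-fold higher in control 1 than in the others. *Mfn2*, its relative, was at 4.33, 3.66 and 3.41 FPKM, and the ranges of the mitofusins did not overlap. *Opa1*, which fuses inner membranes, was at 4.98, 2.21 and 3.84 FPKM. On the side of fission, *Fis1* was at 72.98, 78.6 and 77.5, *Mff* at 26.8, 30.2 and 23.99 and *Dnm1l*, which encodes the constricting GTPase DRP1, at 12.99, 9.93 and 9.55 FPKM. The antioxidant enzymes were higher as a list, with a median of 56.7 FPKM over 22 genes and 17 of them at 1 FPKM or more in every library. *Sod1*, cytosolic superoxide dismutase, was at 580.2, 401 and 444, *Prdx1*, a peroxiredoxin, at 335, 427 and 419.8, *Gpx1* at 338, 399.9 and 429.5 and *Gpx4*, which reduces lipid peroxides, at 148, 163 and 144 FPKM. Catalase, *Cat*, was at 0.45, 0.73 and 0.37 FPKM, and extracellular *Sod3* at 0.01 FPKM or less.

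Histone genes were a clear case of unequal copies. H3.3, the H3 variant laid down outside of replication, is encoded by *H3f3a* and *H3f3b*, which give the same protein. *H3f3b* was at 2903, 2895 and 3166 FPKM in controls 1, 2 and 3 and *H3f3a* at 1594, 2092 and 2110.3 FPKM, and *H3f3c*, which GENCODE lists as a processed pseudogene, was at 16.8, 21.1 and 13.8 FPKM. *H3f3b* exceeded *H3f3a* in every library, by a mean log2 ratio of 0.64 ± 0.20 (SD, n = 3), and held 60.7% of the sum of the 3. *H3f3a* has 65 near copies among pseudogenes and *H3f3b* has 3, and the copies of *H3f3a* summed to 60.7 FPKM, beside its own mean of 1932 FPKM. For H2A.Z, a variant at promoters, *H2afz* (2231, 2467 and 2486 FPKM) exceeded *H2afv* (364, 371 and 379 FPKM) by 2.68 ± 0.06 on the log2 scale. *Cenpa*, the H3 of centromeres, was at 202, 207 and 228 FPKM and *H2afj* at 129.7, 123.5 and 124.1 FPKM. MacroH2A was low, with *H2afy* at 4.23, 3.16 and 2.66 FPKM and *H2afy2* listed at 0 in all.

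Of the linker histones, which bind DNA between nucleosomes, the somatic *Hist1h1b* was the highest at 48.7, 44.1 and 38.05 FPKM. *H1f0*, of non-dividing cells, followed at 10.1, 13.2 and 6.49 FPKM, and *H1foo*, the linker histone of the egg, was down at 3.08, 1.66 and 2.60 FPKM. The replication-dependent histone genes make mRNAs that mostly end without a poly(A) tail, and an oligo-dT primer captures such mRNAs poorly. In these libraries 16 of 59 were at 1 FPKM or more in every library. *Hist1h2ap* was the only one over 100 FPKM by its mean, with 2015, 3536 and 2973 FPKM. The 2 highest CVs among 4522 genes at 10 FPKM or more were in this family, *Hist1h2ah* with 1.68, 34.4 and 6.19 FPKM and *Hist1h2ai* with 0, 30.2 and 8.01 FPKM, both highest in control 2.

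Chromatin enzymes were led by 1 member in most groups. *Cbx3*, which encodes heterochromatin protein HP1 gamma, was at 1363, 1214 and 1628 FPKM and held 96.4% of the HP1 sum, with *Cbx5* at 27.4, 32.4 and 27.4 and *Cbx1* at 20.5, 25.7 and 20.2 FPKM. *Ezh2*, the methyltransferase of H3 lysine 27, was at 148, 98.9 and 75.4 FPKM and *Ezh1* at 7.35, 6.20 and 4.95 FPKM. *Hdac1* (84.3, 78.8 and 69.8 FPKM) exceeded *Hdac2* (46.4, 38.3 and 36.7 FPKM) in every library. Among genes of DNA methylation *Dppa3* was far above all, and *Trim28*, a corepressor that protects imprints, came next with 523, 459 and 328 FPKM. *Tet1*, which oxidises methylcytosine, was at 21.6, 19.2 and 11.9 FPKM, above *Tet2* (6.07, 2.20 and 3.06 FPKM), while *Tet3*, the form of the egg and zygote, was at 0.49, 0.29 and 0.39 FPKM. *Dnmt3l*, the cofactor without an active site, was at 29.7, 33.6 and 40.1 FPKM and *Dnmt3a* at 21.9, 14.4 and 12.8 FPKM. The maintenance enzyme *Dnmt1* was at 4.66, 4.45 and 2.19 FPKM and its partner *Uhrf1* at 1.57, 1.59 and 1.69 FPKM. *Tdg*, a glycosylase of the demethylation pathway, was at 0.06, 0 and 0 FPKM.

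Of 26 pluripotency factors 22 were at 1 FPKM or more in every library, with a median of 10.9 FPKM. *Dppa2* (693, 592 and 704 FPKM) and *Dppa4* (499, 578 and 657 FPKM), partners in opening early embryonic genes, followed the 2 highest, and *Sall4* was at 106, 111 and 139 FPKM. *Nanog*, a factor of the inner cell mass, was at 21.7, 22.9 and 16.4 FPKM in the 3 libraries, and *Pou5f1*, which encodes OCT4, was lower at 7.73, 8.90 and 5.10 FPKM. *Sox2* was listed at 0 in controls 1 and 2 and at 0.10 FPKM in control 3, and *Nr0b1* was listed at 0 in all. Of 17 Kruppel-like factors 11 were at 1 FPKM or more in every library, with *Klf5* at 58.4, 38.2 and 34.8, *Klf17* at 50.1, 30.7 and 29.8, *Klf2* at 37.4, 33.8 and 14.5 and *Klf4* at 22.8, 16.5 and 11.8 FPKM. *Klf5* was above *Klf17* in every library, but their ranges overlapped. Both were highest in control 1, as were 60.4% of protein-coding genes at 10 to 100 FPKM. *Zfp42*, which encodes REX1, was at 47.1, 46.8 and 36.9 FPKM.

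Of 18 trophectoderm genes 9 were at 1 FPKM or more in every library (50%, beside 38.5% of all protein-coding genes). *Tead4*, the DNA-binding factor that starts this lineage, was at 39.1, 34.2 and 30.4 FPKM and *Tfap2c* at 30.9, 22.5 and 16.5 FPKM. *Cdx2*, which acts downstream, was at 0.09, 0.08 and 0.06 FPKM, *Eomes* at 0.32, 0.67 and 0.20 and *Gata3* at 1.84, 1.26 and 1.46 FPKM. *Gata2* was listed at 0 in all 3. The keratins of simple epithelium differed, with *Krt18* at 10.8, 6.51 and 8.26 FPKM and its partner *Krt8* at 1.98, 1.73 and 2.15 FPKM. Of 14 genes of the primitive endoderm 5 were at 1 FPKM or more in every library (35.7%, beside 38.5% of all protein-coding genes). The primitive endoderm is the inner lineage that faces the cavity. Its factors *Gata6* (25.5, 14.3 and 12.1 FPKM) and *Gata4* (20.1, 16.8 and 14.7 FPKM) and the receptor *Fgfr2* (14.8, 10.1 and 15.96 FPKM) were present, while the later *Sox17*, *Sox7*, *Foxa2* and *Hnf4a* were listed at 0 in all. *Fgf4*, the ligand made by inner cells, was at 13.3, 9.63 and 7.95 FPKM.

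Of 32 oocyte genes 15 were at 1 FPKM or more in every library, 46.9% against 38.5% of all protein-coding genes. Their median was 1.57 FPKM, against 0.457 over all protein-coding genes, and none reached 100 FPKM. *Npm2*, the nucleoplasmin that unpacks sperm chromatin, was the highest at 25.9, 31.04 and 32.2 FPKM, followed by *Oosp1* (12.1, 26.02 and 16.01 FPKM) and *Zp3* (15.7, 9.96 and 12.4 FPKM). *Gdf9*, a growth factor of the oocyte, was at 2.11, 3.11 and 2.88 FPKM. The transcription factors of the growing oocyte, *Nobox*, *Figla*, *Sohlh1* and *Lhx8*, were each under 0.1 FPKM by their mean. In the subcortical maternal complex, an assembly of egg-stored proteins, 7 of 8 genes reached 1 FPKM in every library but only *Khdc3* (26.5, 20.4 and 21.6 FPKM) and *Padi6* (13.2, 14.7 and 12.8 FPKM) reached 10 by their mean. *Nlrp5* was at 2.25, 1.82 and 1.42 FPKM and *Ooep* at 1.08, 2.04 and 1.73 FPKM. These are RNA levels, and the proteins laid down in the egg were not measured.

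Of 25 genes of the first wave at the 2-cell stage 10 were at 1 FPKM or more in every library. This was 40%, near the 38.5% of all protein-coding genes, and the levels of the 25 were uneven. *Pramel7* (471, 474 and 397 FPKM), *Sp110* (366, 419 and 416 FPKM) and *Pramel6* (153, 192 and 171 FPKM) stood over 150 FPKM. In contrast, *Zscan4d* was at 1.15, 1.02 and 1.30, *Zscan4c* at 0.42, 0 and 2.65 and *Zfp352* at 0.44, 1.33 and 1.73 FPKM, and *Duxf3*, the factor that opens this wave, was at 0.03, 0 and 0 FPKM. By their means 11 of the 25 were under 1 FPKM and 3 were at 100 FPKM or more. Members of the Obox homeobox family, regulators of genome activation, were just as uneven. *Obox6* stood at 1078, 1101 and 1305 FPKM and *Obox8* at 149, 139.5 and 150.3 FPKM, while *Obox5* at 3.65, 5.34 and 5.94 FPKM was the next of 7.

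**Figure D3:**
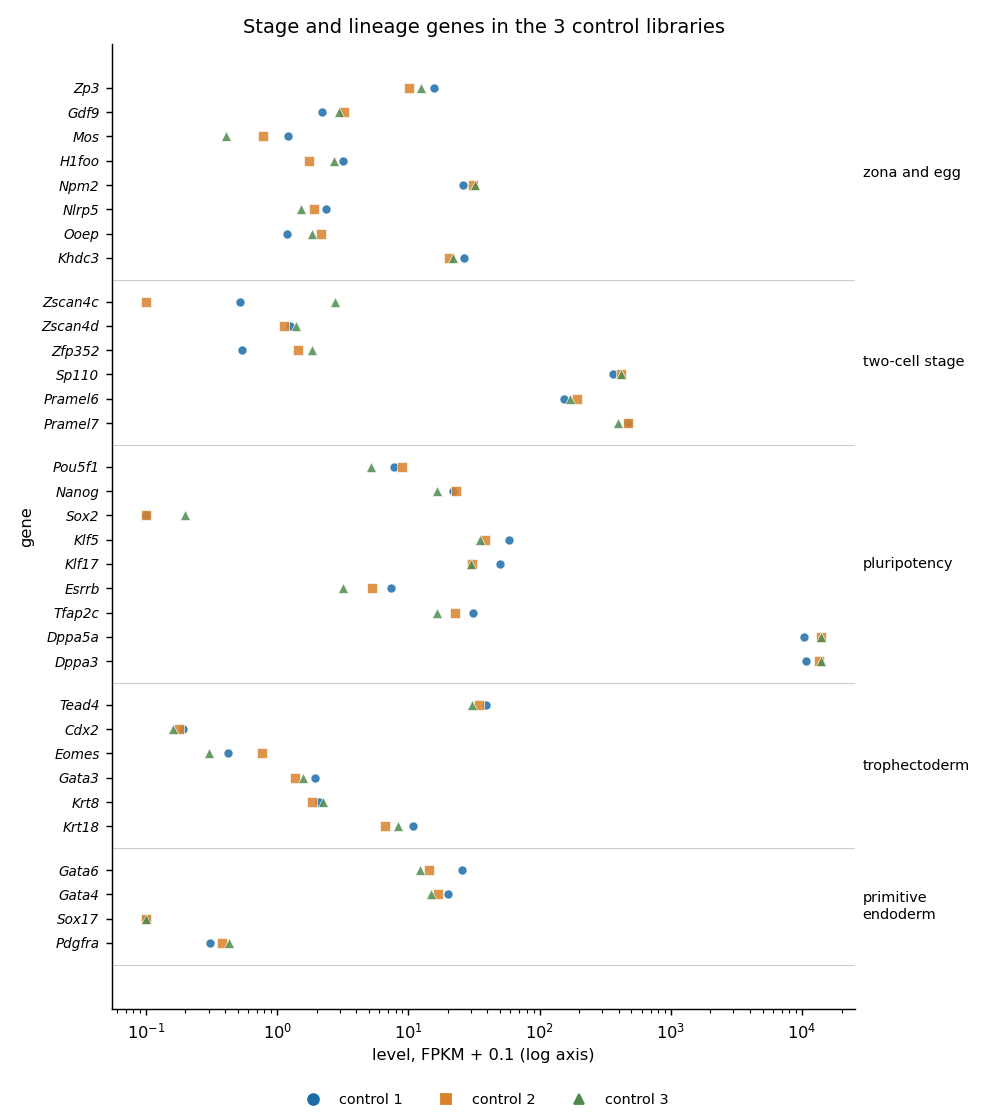
Level in FPKM + 0.1 on a log axis of genes of the egg, the 2-cell stage, pluripotency, trophectoderm and primitive endoderm, with 1 symbol per control library. *Dppa5a* and *Dppa3* lie at the far right, *Tead4*, *Gata6* and *Gata4* are above 10 FPKM in every library, and *Sox2*, *Cdx2* and *Sox17* lie at the left edge.

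Genes of adhesion and polarity ranged from abundant to absent. *Cdh1*, the E-cadherin by which blastomeres adhere, was at 19.9, 11.9 and 9.18 FPKM. *Ctnnb1*, beta-catenin, at 145, 95.1 and 76.8 FPKM was the highest of the 13 cadherins and catenins. Of the 13, 5 were at 1 FPKM or more in every library (38.5%, the same share as of all protein-coding genes). *Ctnna1* was at 33.7, 26.6 and 21.02 FPKM. All 3 genes were highest in control 1 and lowest in control 3. At 10 to 100 FPKM, the class of *Cdh1* and *Ctnna1*, control 1 was highest for 60.4% of protein-coding genes and control 3 lowest for 47.3%. At 100 FPKM or more, the class of *Ctnnb1*, these shares were 26.6% and 24.8%. Of 25 polarity and tight junction genes 17 reached 1 FPKM in every library, with *Crb3*, an apical determinant, at 129.8, 132 and 129 FPKM (CV 1.21%), *F11r*, junctional adhesion molecule A, at 81.7, 60.9 and 52.05 and *Prkcz*, an atypical protein kinase C, at 22.4, 19.6 and 22.7 FPKM. *Rdx* led the ERM proteins, which tie actin to the apical membrane, with 21.9, 13.9 and 7.78 FPKM, against 1.37, 0.76 and 2.32 FPKM for *Msn* and 1.43, 0.41 and 0.16 FPKM for *Ezr*. In the Hippo pathway, which reads polarity, 16 of 22 genes were at 1 FPKM or more in every library. *Yap1* was at 9.37, 9.43 and 6.29, *Wwtr1* at 10.7, 13.2 and 9.34, *Lats2* at 9.66, 10.02 and 11.6, *Nf2* at 21.5, 13.9 and 13.5 and *Amot* at 5.52, 3.23 and 2.58 FPKM.

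Channels, claudins and pumps were families with 1 or a few members in use. Of 20 connexins 10 were listed at 0 in all 3 libraries, while *Gja1* was at 147, 159.7 and 174 FPKM. Among 23 claudins 5 were at 1 FPKM or more in every library, *Cldn7* (23.8, 17.4 and 19.9 FPKM), *Cldn6* (18.03, 11.9 and 12.8 FPKM), *Cldn4* (7.97, 4.15 and 3.29 FPKM), *Cldn12* (4.25, 2.32 and 2.44 FPKM) and *Cldn10* (1.38, 2.34 and 4.89 FPKM), and 14 were listed at 0. Of 12 aquaporins, water channels, *Aqp9* was at 79.3, 58.4 and 60.1, *Aqp11* at 28.7, 25.8 and 20.7 and *Aqp3* at 8.08, 4.28 and 3.54 FPKM. The sodium pump later fills the blastocyst cavity. Among its beta subunits *Atp1b3* stood at 229, 224 and 210.2 FPKM and *Atp1b1* at 3.45, 3.65 and 1.99 FPKM, with *Fxyd4*, a regulator of the pump, at 9.45, 14.8 and 12.98 FPKM.

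In the cell cycle list, *Ccnb1* at 1372, 1281 and 1439 FPKM and *Ccna2* at 316, 271 and 225 FPKM were the mitotic and S phase cyclins in use, and *Ccne1* (109.96, 81.05 and 59.2 FPKM) exceeded *Ccne2* (17.1, 12.9 and 16.1 FPKM). Cyclins D, which answer growth factors, were low, *Ccnd3* at 15.1, 15.1 and 10.1 FPKM, *Ccnd1* at 1.95, 0.86 and 1.43 and *Ccnd2* at 0.49, 0.93 and 1.34 FPKM. Of 19 genes of the BCL2 family 7 were at 1 FPKM or more in every library (36.8%, beside 38.5% of all protein-coding genes). The pro-death *Bax* (129, 114 and 99.2 FPKM) and the protective *Mcl1* (99.7, 77.6 and 59.4 FPKM) were the highest, and *Bcl2* was under 0.1 FPKM and *Bak1* listed at 0 in all. Of 13 MAP kinases 6 reached 1 FPKM in every library (46.2%). No Wnt ligand of 19 reached 1 FPKM in every library, and *Wnt10b* came nearest at 4.89, 1.32 and 0.97 FPKM. Of 15 genes for FGF ligands and receptors 6 reached 1 FPKM in every library (40%).

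The order of paralogues mostly held over the libraries. In 55 groups of related genes, grouped by function, the member with the highest mean was also the highest in every library in 53. Its lowest library was above the highest library of the second member in 52. This first member was picked by its mean over the same 3 libraries, which favours such counts. They were not set beside groups of unrelated genes, so they describe the order and do not show that paralogues are steadier than other genes. The first member held more than 90% of the summed FPKM in 25 groups. The groups whose first and second member overlapped were the Kruppel-like factors, the DPPA genes and the aldolases without *Aldoa*. In the last both members were under 0.3 FPKM in every library. Housekeeping groups ranged from one-sided to mixed. *Eef1a1* was at 1520.2, 1571 and 1252 FPKM and *Eef1a2* at 0, 0 and 0.02 FPKM. *Tubb4b* (273, 280.1 and 180.1 FPKM) held 90.8% of the beta tubulins, far above *Tubb5* (24.4, 11.7 and 13.5 FPKM). *Actb* (497, 259 and 252 FPKM) exceeded *Actg1* (132, 121 and 89.5 FPKM) in every library and held 73.6% of the actins. *Hsp90aa1*, the stress-inducible HSP90, stood at 2154, 3439.7 and 2669.8 FPKM and exceeded the constitutive *Hsp90ab1* with 1302, 1222 and 1039 FPKM. Among the alpha tubulins the highest, *Tuba1c*, held only 44.0%. *Slc25a5* was the main ADP/ATP carrier at 259, 268 and 304 FPKM, against 29.6, 35.8 and 30.3 FPKM for *Slc25a4*.

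Several groups also held a clear level of a second copy, some of them known from the testis or from muscle. *Rps27l* was at 2891, 4183 and 4071 FPKM, below *Rps27* by a log2 ratio of 0.97 ± 0.07 (SD, n = 3), and *Rpl39l* was at 836, 881 and 1100.4 FPKM against 2263, 2721 and 3007 FPKM for *Rpl39*. *Rpl10l*, a retrogene of the testis, was at 70.2, 64.9 and 55.1 FPKM, and *Rpl22l1* at 327, 490.4 and 459 FPKM. Among respiratory subunits *Cox7a1*, the form of heart and muscle, was at 112, 83.6 and 102 FPKM beside 881, 1051 and 1174 FPKM for *Cox7a2*, and the sperm form *Cox6b2* was at 11.2, 30.6 and 24.6 FPKM. *Cyct*, the cytochrome c of the testis, was at 8.91, 15.4 and 10.3 FPKM beside *Cycs* at 153, 136 and 153 FPKM. The 22 pseudogene copies of *Cycs* summed to 221, 398 and 463 FPKM, so the level of *Cycs* is uncertain. Other second copies were close to nothing, such as *Pdha2*, *Pgk2*, *Gapdhs* and *Cox8b*, all listed at 0 in every library. Lactate dehydrogenase was led by *Ldhb* (13.2, 12.7 and 17.2 FPKM), the heart form that favours lactate use, over *Ldha* (4.15, 5.89 and 3.73 FPKM) and the testis form *Ldhc* (2.84, 1.86 and 5.10 FPKM).

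**Figure D4:**
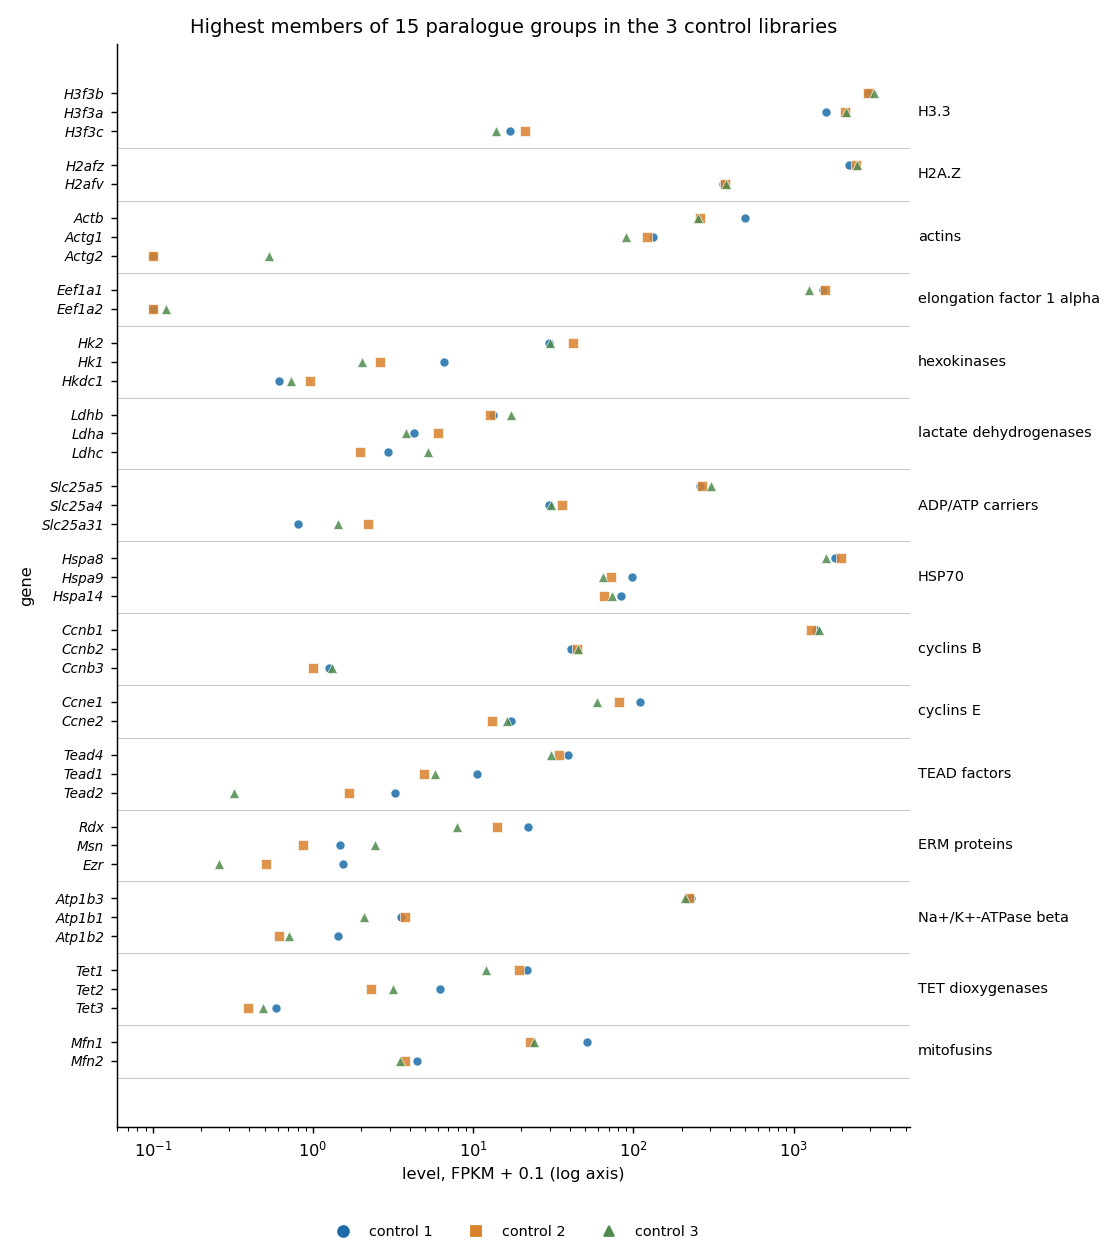
Level in FPKM + 0.1 on a log axis of the 2 or 3 highest members of 15 paralogue groups, with 1 symbol per control library and the group named at the right. The symbols of the first and second members do not mix in any group shown, and the smallest gap shown is that of *H3f3b* over *H3f3a*.

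Pseudogene entries carried part of the RNA under other names. Of 12814 pseudogene entries 121 were at 100 FPKM or more, and they held 15.1% of all FPKM. By sequence, 103 of the 121 matched a protein-coding transcript over at least 50% of their length, with a median identity of 99.6%, and the match was a cytoplasmic ribosomal protein gene in 50 and a mitochondrial gene in 6. The highest pseudogene was *Gm12615* at 10406, 18379.9 and 21894 FPKM.

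A stretch of chromosome 1 (24612407 to 24616197) held 6 copies of mitochondrial genes, 4 of them identical to the gene over the aligned bases. *Gm10925*, a copy of *mt-Atp6*, was listed at 13884, 17346 and 17484 FPKM and *Gm10222*, a copy of *mt-Nd4l*, at 5706, 7677 and 7414 FPKM, above *mt-Nd4l* itself with 530.0, 915 and 891 FPKM. Reads of identical copies cannot be assigned to either, so the levels of these mitochondrial genes are uncertain. Likewise *Rps2* was at 337, 342 and 354 FPKM while its copy *Rps2-ps13* was at 1947, 2809.7 and 2835 FPKM, and *Rpl21* at 659.5, 858 and 832 FPKM while its copy *Gm10163* was at 1828, 2925 and 2699 FPKM. Of 360 pseudogene entries at 10 FPKM or more, 14 had the same 3 values as another entry.

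Families of differentiated tissues were almost absent. Of 1133 olfactory receptors 909 were listed at 0 in every library and 4 were at 1 FPKM or more in every library. *Olfr1459* (45.8, 36.7 and 34.7 FPKM) was the only one over 10 FPKM by its mean, and *Olfr655* (5.67, 12.2 and 10.3 FPKM) came next. Of 327 vomeronasal receptors, 38 taste receptors, 57 keratin-associated proteins and 14 interferons of type I none reached 1 FPKM in every library. Neither did any of 39 Hox genes, which pattern the body axis later, and 14 of them were listed at 0. Of 42 beta-defensins, antimicrobial peptides of epithelia, 34 were listed at 0, but *Defb42* was at 51.2, 67.2 and 74.98 FPKM. Cytochrome P450 genes were at 1 FPKM or more in every library in 5 of 98, and *Cyp2s1* was the highest at 44.05, 38.8 and 24.7 FPKM. Larger families were in between, with 114 of 342 solute carriers (33.3%) and 184 of 393 zinc finger genes named Zfp (46.8%) beside 38.5% of all protein-coding genes.

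Markers of other cell types bear on the purity of the pools. None of 15 genes of cumulus and granulosa cells, which surround the egg, reached 1 FPKM in any library, their sum was 0.32, 0.15 and 0.55 FPKM, and *Amh*, *Inha*, *Fshr* and *Cyp19a1* were listed at 0. Of 14 sperm and spermatid genes *Oaz3* (2.59, 1.42 and 4.93 FPKM) and *Prm2* (1.78, 1.39 and 1.39 FPKM) were at 1 FPKM or more in every library, and 7 were listed at 0. Among 10 liver markers *Tat* (3.00, 1.56 and 2.45 FPKM) was the only one at that level, and *Alb* was listed at 0. *Grin1* (2.91, 3.14 and 1.36 FPKM) was the only one of 10 neuron markers. Of 13 muscle markers none reached it in every library, with *Tnni2* nearest at 1.28, 3.88 and 0.92 FPKM, although *Mylpf*, a myosin light chain gene of fast muscle that was not on the list, stood at 229, 233 and 234 FPKM and had 1 of the 10 lowest CVs.

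A few blood genes were higher, while of the 12 blood markers 7 were above 0 but under 1 FPKM by their mean and 1 was listed at 0. *Hba-a1*, alpha globin, was at 77.7, 66.7 and 66.2 FPKM in controls 1, 2 and 3 and *Hba-a2* at 11.6, 38.5 and 43.3 FPKM. Beta globin *Hbb-bs* was listed at 0 in control 1 and at 29.6 and 25.4 FPKM in controls 2 and 3. *S100a8* (0, 45.6 and 42.9 FPKM) and *S100a9* (0, 34.5 and 30.8 FPKM), genes of neutrophils that are among the 10 highest CVs and not on the blood list, were also listed at 0 in control 1 alone. The neutrophil gene *Ngp* was listed at 0 in all, so it can neither show nor lack this pattern. *Camp*, another neutrophil gene, was also lowest in control 1 but above 0 there, at 5.55, 6.53 and 8.00 FPKM. The 12 blood markers summed to 93.3, 141 and 141 FPKM, 2 of 12 were at 1 FPKM or more in every library and 4 of 12 in controls 2 and 3, while *Ptprc*, a gene of all white blood cells, was at 0.16, 0.38 and 0.29 FPKM. Whether the globin and S100 RNAs came from blood cells in the pools was not tested. Nor was their part in the other differences between control 1 and the rest.

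Sex-linked genes were measured in pools that can hold both sexes. *Xist*, the RNA of the inactive X chromosome, was at 23.7, 5.54 and 3.61 FPKM, and *Tsix*, its antisense gene, at 16.2, 9.96 and 16.4 FPKM, and since the strand setting is not given in the sources used here the reads of the pair cannot be told apart. The Y-linked *Eif2s3y* was at 23.00, 38.9 and 25.5 FPKM and *Ddx3y* at 3.97, 4.91 and 3.01 FPKM, so Y-linked RNA was present in each pool. *Xist* was highest in control 1, and the number of male and female embryos in a pool was not given. Of 30 imprinted genes 13 were at 1 FPKM or more in every library (43.3%, beside 38.5% of all protein-coding genes). They were led by *Snrpn* (63.9, 62.7 and 57.5 FPKM), *Phlda2* (32.4, 57.5 and 49.03 FPKM) and *Mcts2* (36.1, 53.8 and 46.9 FPKM). *H19*, *Meg3* and *Dlk1* were under 0.1 FPKM by their mean.

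Levels were the steadier the higher they were. The median CV of protein-coding genes was 12.9% at 100 FPKM or more, 18.9% at 10 to 100, 31.6% at 1 to 10 and 91.3% above 0 but under 1, and the highest library exceeded the lowest by more than 2-fold in 1.07%, 10.8%, 41.0% and 86.8% of them. Over all 5333 entries with a mean of at least 10 FPKM the median CV was 18.0% and 12.6% differed by more than 2-fold. Without control 1 these were 10.5% and 3.10%, without control 2 19.2% and 9.05%, and without control 3 15.98% and 6.87%, and 2 libraries have less room to differ than 3. Of the 670 entries over 2-fold, control 1 was the highest in 334 and the lowest in 264. Over 4317 entries with a mean of at least 10 FPKM in each of the 3 groups, the controls had a median CV of 16.9%, MFN1-KD embryos 27.5% and H3.3-KD embryos 20.9%, and 8.99%, 35.9% and 21.6% of the entries differed by more than 2-fold inside these groups. In MFN1-KD library 3, 15577 entries were above 0, against 19250 and 20842 in MFN1-KD libraries 1 and 2. The part of that library in the MFN1-KD spread was not tested, nor was the difference in spread between groups.

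**Figure D5:**
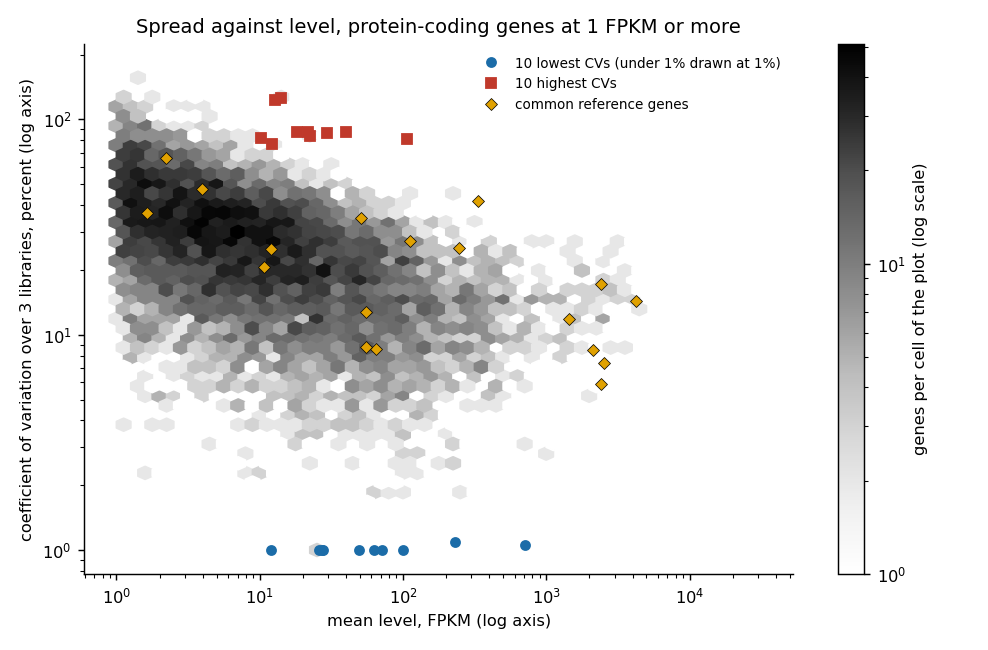
CV over the 3 control libraries against the mean FPKM of protein-coding genes at 1 FPKM or more with a transcript of at least 300 bases, both on log axes, with grey cells for the number of genes. The cloud falls from about 31.6% at 1 to 10 FPKM to 12.9% at 100 FPKM or more, the 10 highest CVs (squares) lie over 77% and the 10 lowest (circles) at about 1% or less, and the common reference genes (diamonds) lie from 5.94% upwards.

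The 10 lowest CVs among 4522 protein-coding genes at 10 FPKM or more were between 0.284% and 1.09%, where the median of the 4522 was 17.0%. *Clspn*, claspin of the replication checkpoint, was at 26.1, 25.9 and 25.9 FPKM, *Tnfrsf12a*, a receptor of the TNF family, at 27.3, 27.5 and 27.2 and *Scfd1*, of vesicle transport, at 27.9, 27.6 and 27.6 FPKM. *Atp5g2*, a subunit of ATP synthase, was at 49.5, 49.1 and 49.8 FPKM and *Rpl3* at 719.6, 719 and 706 FPKM. The 33 pseudogene copies of *Rpl3* summed to 358, 457 and 455 FPKM, so its own spread is uncertain. The lowest of so many CVs over 3 libraries are low in part by selection. At the other end, beside the histone, globin and S100 genes above, *Ly6a*, which encodes a cell surface antigen, was at 41.2, 206 and 73.6, the chemokine *Ccl5* at 1.47, 10.9 and 18.2 and the predicted genes *Gm3183*, *Gm4340* and *Gm10320* at 15.7, 80.5 and 24.7, 4.05, 41.5 and 21.3 and 20.5, 13.96 and 1.99 FPKM.

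Genes that many studies use as a reference were not all steady. Of 18 listed genes 17 were at 1 FPKM or more in every library, with a median of 88.1 FPKM, and the CVs of the 15 at 10 FPKM or more ranged from 5.94% to 41.6% with a median of 14.3%. *H2afz* (2231, 2467 and 2486 FPKM), *Rplp0* (2386, 2751 and 2484 FPKM) and *Ywhaz* (49.5, 58.6 and 56.98 FPKM) had CVs of 5.94%, 7.43% and 8.81%. *Hprt* was at 2066, 2272 and 2859 FPKM and *Tbp* at 50.1, 51.8 and 62.98 FPKM, both highest in control 3. *Actb*, with 497 FPKM in control 1 and 259 and 252 FPKM in the others, had the highest CV of the 15, and *Gapdh*, *Gusb* (3.86, 1.58 and 1.16 FPKM) and *Polr2a* (2.12, 1.84 and 0.96 FPKM) were below 10 FPKM.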

How the data were processed

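The 9 libraries were made from pools of 8-cell embryos with Smart-Seq2, and the deposited tables hold FPKM that the authors computed, with 2 decimals and no counts. The submitters' processing notes name cutadapt, STAR and mm10. The program that gave the FPKM, its annotation and its strand setting are not given in the sources used here. The authors' own tests were not used.

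From the 3 control columns (python 3.11.15, numpy 2.4.6, pandas 2.3.3, matplotlib 3.10.9) the mean, SD and CV (SD over mean) were computed, and entries were put into classes by their mean, with limits of 1, 10 and 100 FPKM. Log2 ratios used a pseudocount of 1 FPKM. Groups came from the labels alone. No test was run, since the levels of the chosen genes are a description and an exact two-sided permutation of 3 pairs cannot give a p under 0.25, and depth and its precision are unknown. Biotypes, positions and transcript lengths came from GENCODE M21, matched by symbol for 53424 of 55335 entries, and 216 entries whose symbol was carried by more than 1 entry were left out of lists. Pseudogene transcripts were aligned to coding transcripts with blastn 2.17.0. The scripts were checked on simulated data.

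The genes named were the members of 41 lists, 19 symbol families and 55 paralogue groups, the 30 highest protein-coding genes and the 10 lowest and 10 highest CVs at 10 FPKM or more. *Ngp*, *Camp* and the pseudogene copies were singled out after their values were seen. The members and lists were chosen with earlier results of these data known. Alternatives were other scalings, the TPM scale, other minimum levels, another pseudocount, protein-coding genes alone, and leaving out each library.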

Additional observations from a re-analysis of the deposited data

How the results depend on the processing

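No paired analysis was possible because the groups that share replicate numbers were not compared and the results come from no test. Under the alternatives 80 summary values moved by less than the spread or 1.5 times and 15 moved more. Among protein-coding genes alone, 7243 were above 0 but under 1 FPKM and 5146 were listed at 0, against 14601 and 28703 of all entries, because fewer entries were counted. With the lowest library setting the class, 7598 entries were above 0 but under 1 FPKM. With a minimum mean of 1 FPKM the median CV was 25.4% and 31.1% of entries differed by more than 2-fold, against 18.0% and 12.6% at 10 FPKM. Leaving out 1 library gave median CVs of 10.5% to 19.2% and 3.10% to 9.05% over 2-fold, the lowest of each without control 1. At a minimum of 10 FPKM, 257 list members passed, against 398 of 739 at 1 FPKM. Lists with no member at the minimum numbered 4 at 1 FPKM, 1 at 0.1 FPKM, 8 at 10 FPKM, and 2 to 4 with 1 library left out. The median log2 ratio of first to second paralogue was 2.68, became 3.38 with a pseudocount of 0.1 FPKM, and ranged from 2.59 to 2.81 with 1 library left out. Of the single lists' values, 247 stayed within the limits and 40 did not, 13 of these at 0.1 FPKM and 23 at 10 FPKM. Depth limits the low levels, and without counts its size cannot be given.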
